A study of Boechera stricta with 13 samples.

Results

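Runs of neighbouring genes were sought among the genes whose expression responded to drought or to herbivory in Boechera stricta, a wild perennial relative of Arabidopsis. An identifier of its genome annotation holds a scaffold and a gene number, so that Bostr.26833s0311 is gene 311 of scaffold 26833. A run was 3 or more consecutive gene numbers on the same scaffold, each listed in at least 1 of 9 tables of genes called between groups of plants. The 61 identifiers listed for herbivory in both populations were set aside. Of 2934 annotated identifiers in the tables, 2873 were left, and 146 of them lay in 45 runs. The members were thus chosen from the calls of these same comparisons, so all counts and values of the runs are a description and carry no test. The runs lay on 35 of the 190 scaffolds with a listed gene, and scaffold 26833, with 103 listed genes, held 3 of them. Of the 45 runs, 36 had 3 genes, 7 had 4 and 2 had 5, and their members were linked by 101 adjacent pairs. The gene number was taken as the order along the scaffold and was not checked against an annotation here.

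The 13 plants, each sequenced as a whole shoot, came from 1 line of each of 2 populations, 7 from Big Horns and 6 from Black Hills. Control plants were watered and caged without larvae (2 plants, 1 per population), and herbivory plants were watered and caged with early instar larvae of the beet armyworm, Spodoptera exigua (2 plants, 1 per population). Drought plants had their water reduced step by step, recovered briefly and were caged without larvae (4 plants, 2 per population), and double challenge plants had the same drought and then larvae (5 plants, 2 of Black Hills and 3 of Big Horns). Each population was sequenced in its own lane, and lane and population therefore cannot be told apart. Treatments were applied by flat.

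Genes that lie next to each other in a plant genome can be copies left by tandem duplication, which is common among genes for defence chemistry and stress responses, or unrelated genes that share a stretch of promoter or chromatin. Such neighbours may be transcribed together, or each may answer to its own regulators. Feeding by caterpillars raises jasmonate, the hormone that turns on many defence genes, while water shortage raises abscisic acid, which closes stomata and turns on genes for water stress. The tables pair no identifier with a gene name, so no function or family is given for any member below, and whether the members of a run are copies of one another is not known here.

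Each table gives 1 value per group of plants. The level of a gene is its FPKM, a count of fragments corrected for transcript length and for the number of mapped fragments, and it was derived for each group from the authors' fold change and the sum of both groups' FPKM. No spread between plants of a group, no depth per library and therefore no error of a level or fold change can be given. A gene that a table does not list was not called in that comparison, and its level there is unknown. Where a group occurs in several comparisons of a member, its level could be derived again from each table, and the 66 such pairs of values differed by a median factor of 1.02, with 62 of them within 10%. Neighbours that overlap or are near copies could share reads, and the part of this in any result was not tested.

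**Figure D1:**
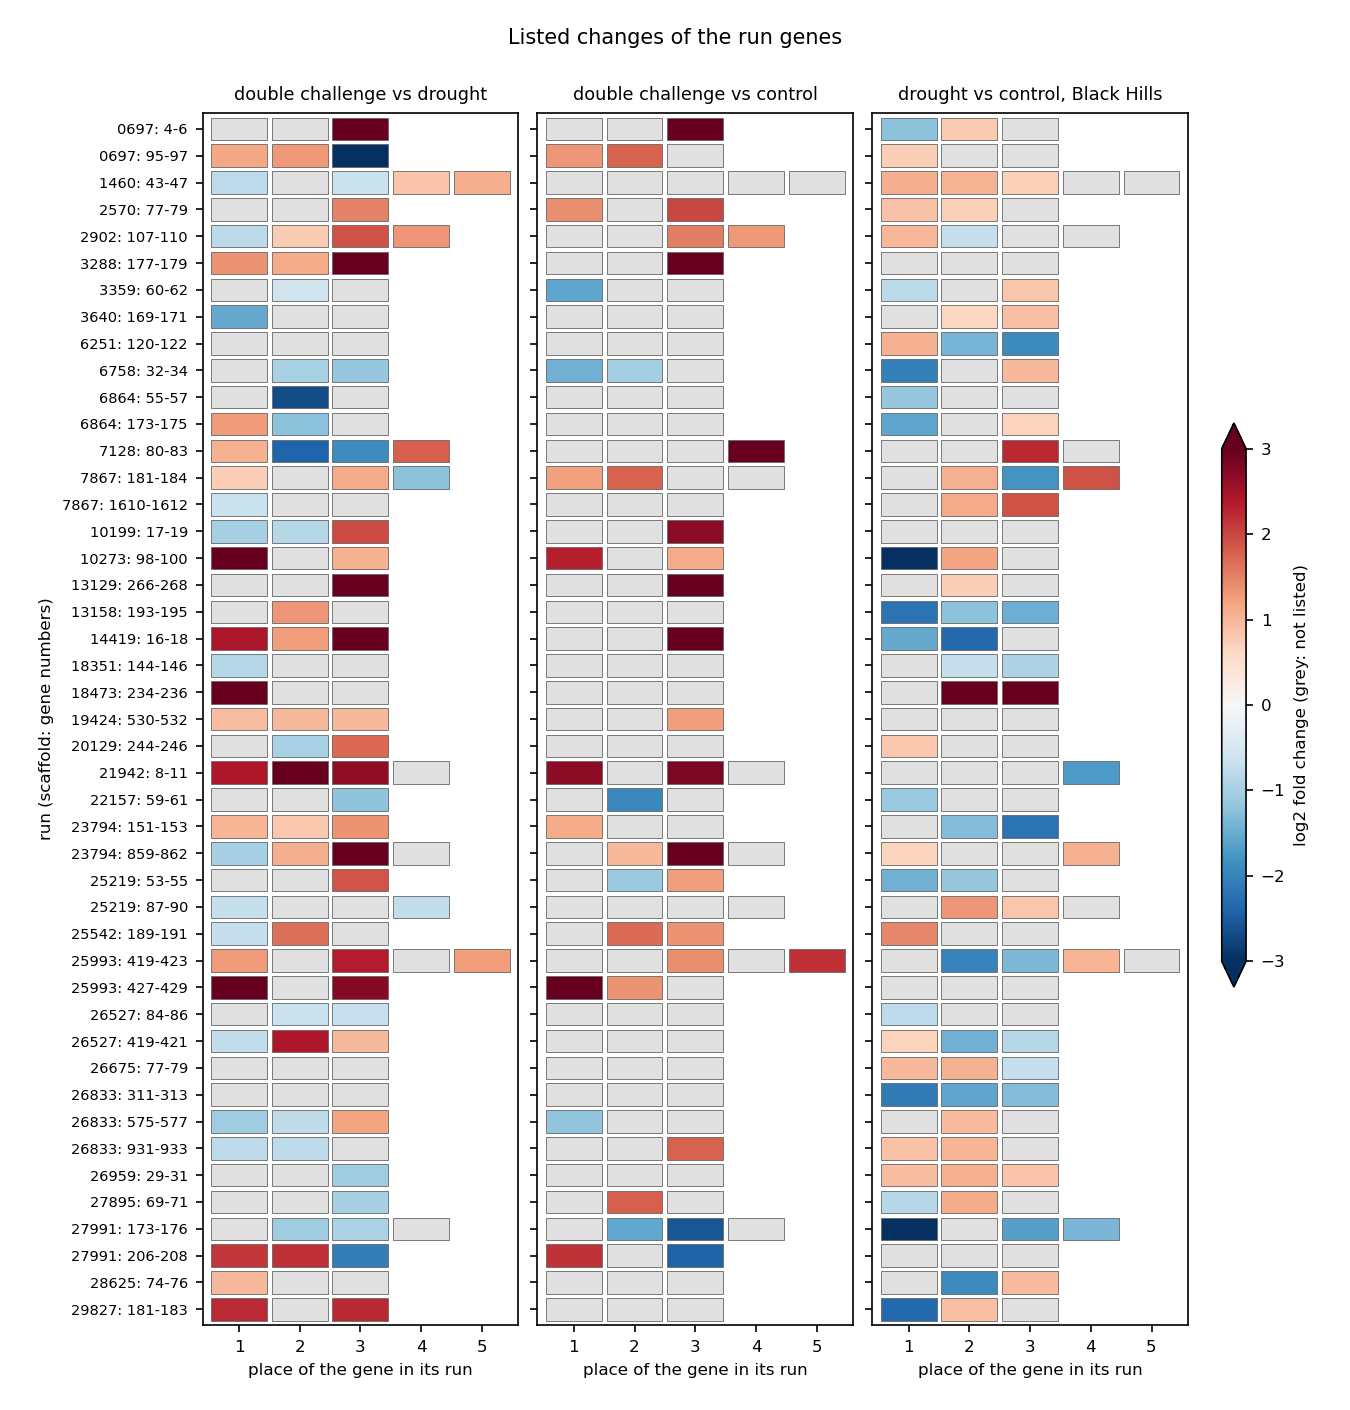
Log2 fold change of the genes of each run in the 3 comparisons that list most members, with 1 row per run (labelled by scaffold and gene numbers) and the genes in their order along the row, red for up-regulated, blue for down-regulated and grey for genes that the table does not list. The colour scale ends at 3 in either direction, and colours differ within many rows, as in 13 runs of the double challenge against drought and 14 of drought in Black Hills.

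The members' 260 calls fell mainly in 2 comparisons. The double challenge against drought, which asks what larvae did to plants already droughted, listed 88 of the 146 members (60.3%, beside 54.2% of all 2873 genes). Of these, 53 were up-regulated (36.3%, beside 32.0%) and 35 down-regulated (24%, beside 22.2%). Drought against control in Black Hills listed 80 members (54.8%, beside 59.1%), 42 up-regulated (28.8%, beside 31.7%) and 38 down-regulated (26%, beside 27.3%). Both comparisons contain the drought plants of Black Hills. The double challenge against control listed 41 members (28.1%, beside 25.4%), of which 32 were up-regulated (21.9%, beside 17.5%) and 9 down-regulated (6.16%, beside 7.87%). A gene had to be listed to enter a run, so these shares say where the calls of members and of all genes lay and nothing more. Without the table of drought in Black Hills, the rule gave 19 runs with 60 members.

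The other 6 comparisons listed few members. Herbivory against control listed 16 (11%, beside 10.8% of all genes), 11 up-regulated and 5 down-regulated (68.8% up-regulated, beside 61.9% of all genes listed there). Drought against control listed 13 (8.90%, beside 5.71%), 5 up-regulated and 8 down-regulated (38.5% up-regulated, beside 59.8%), so that these few members leaned the other way from the table. The double challenge against herbivory listed 6, all up-regulated (4.11%, beside 2.33%), in a table where 92.5% of all listed genes were up-regulated. Within Big Horns, drought listed 4 members (2.74%, beside 2.30%) and herbivory 6 (4.11%, beside 2.26%), all of them up-regulated, where 92.4% and 63.1% of all listed genes were. Within Black Hills, herbivory listed 6 (4.11%, beside 3.03%), 3 in each direction, where 46.0% of all listed genes were up-regulated. Listed members changed between 1.54-fold and 45.0-fold. Their median fold change was 2.29 in the double challenge against drought, where that of all listed genes was 2.31, and 2.14 in drought in Black Hills, where that of all was 2.05.

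Adjacent members listed in the same comparison more often moved in the same direction than in opposite ones. Over the 9 comparisons an adjacent pair was listed together 86 times, in the same direction 57 times (66.3%; 35 times both up-regulated and 22 times both down-regulated) and in opposite directions 29 times. In the double challenge against drought 24 of 38 such pairs had 1 direction (63.2%), 17 of them up-regulated and 7 down-regulated. In drought in Black Hills 23 of 35 had 1 direction (65.7%), 11 up-regulated and 12 down-regulated. The double challenge against control had 8 of 9, drought against control 1 of 3 and herbivory against control 1 of 1, and the remaining 4 comparisons listed no adjacent members together. Of the 101 adjacent pairs, 71 were listed together at least once and 30 never, which means that those neighbours were called in different comparisons. Whether an uncalled neighbour changed there too is unknown. How often neighbours are listed together depends on how many genes a comparison lists, and no share for other genes was set beside these counts. No pair changed from the same direction to opposite ones between comparisons: 47 always moved the same way and 24 always opposite ways, although just 12 pairs were listed together in more than 1 comparison, and those comparisons share plants. With the identifiers set aside for herbivory kept, the share of pairs in 1 direction was 76.2% of 126. Of these, 23 came from genes 60 to 64 of scaffold 27895 alone, all in 1 direction, and without that run the share was 70.9% of 103, an alternative added after seeing the data.

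Where neighbours moved the same way, their fold changes were of like size. The log2 fold changes of the 57 pairs of 1 direction differed by a median of 0.35, and in 46 of them the fold changes lay within 2-fold of each other (80.7%). Among same-direction pairs of listed genes more than 50 numbers apart on a scaffold this was so for 75.7%, so most of that likeness is found between distant genes too. In drought in Black Hills all 23 same-direction pairs lay within 2-fold, beside 84.0% of distant pairs. The other 2 main comparisons did not show this. In the double challenge against drought 16 of 24 lay within 2-fold (66.7%), beside 68.0% of distant pairs. For the double challenge against control it was 5 of 8 (62.5%), beside 66.8%. Over pairs of both kinds, the median difference was 0.87, with quartiles of 0.25 and 2.35. The log2 fold changes of neighbours correlated weakly across pairs, with r = 0.26 and rho = 0.22 over 38 pairs in the double challenge against drought and r = 0.41 and rho = 0.24 over 35 pairs in drought in Black Hills. The pairs come from the same libraries and some share a gene, so these are descriptions. The levels of neighbours were unlike: their FPKM in the first group of a comparison (the drought or control plants that served as reference) differed by a median of 4.32-fold and by up to 346-fold. That median was 3.76-fold for pairs of 1 direction and 4.87-fold for opposed pairs.

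**Figure D2:**
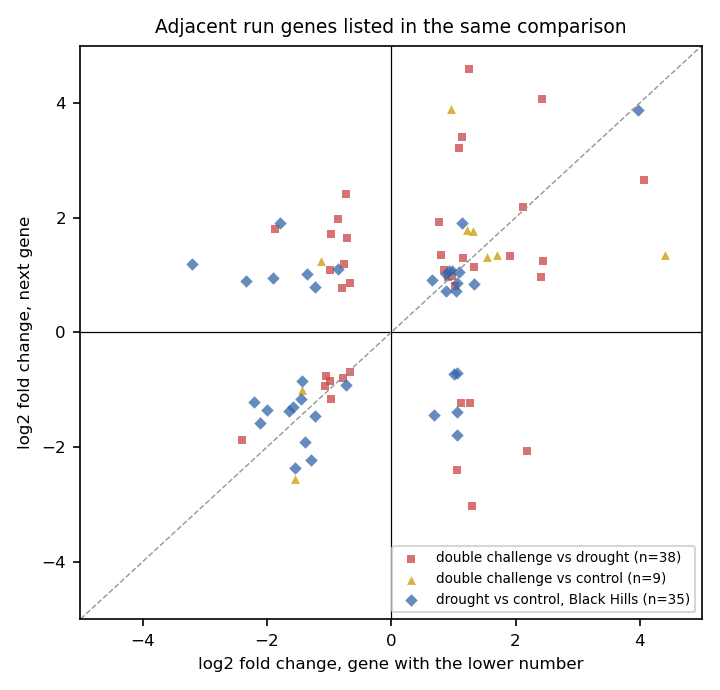
Log2 fold change of each member (x axis) against that of the next gene of its run (y axis), for adjacent pairs listed in the same comparison (3 comparisons, marked by colour and shape), with points in the upper right and lower left where both moved the same way and a dashed line of equal change. In the double challenge against drought 24 of 38 points and in drought in Black Hills 23 of 35 points lie where both signs match.

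Sharing of direction fell off within a few genes. Over any 2 listed genes of a scaffold, those 1 number apart moved the same way in 71.0% of 307 pairs, those 2 apart in 63.0% of 235 and those 3 apart in 55.0% of 229. At 6 to 10 numbers apart it was 55.3% of 1050 pairs, at 21 to 50 it was 51.4% of 5713, and beyond 50 it was 51.7% of 46965. The same order was seen in the double challenge against drought (67.9% at 1 number, 64.3% at 2 and 55.1% at 3, beside 51.9% beyond 50) and in drought in Black Hills (71.0%, 62.2% and 55.3%, beside 50.4%). In the double challenge against control 85.2% of 27 adjacent pairs moved the same way, beside 57.3% beyond 50. The fall was not even there, with 54.5% at 2 numbers, 52.9% at 3 and 67.3% at 4 to 5. Of all genes listed in that comparison, 69.0% were up-regulated. Runs did not stand above shorter stretches. Runs of exactly 3 genes, just inside the limit, had 39 of 56 pairs in 1 direction (69.6%), and stretches of exactly 2, just outside it, had 161 of 221 (72.9%). Pairs share genes and plants and were not tested.

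**Figure D3:**
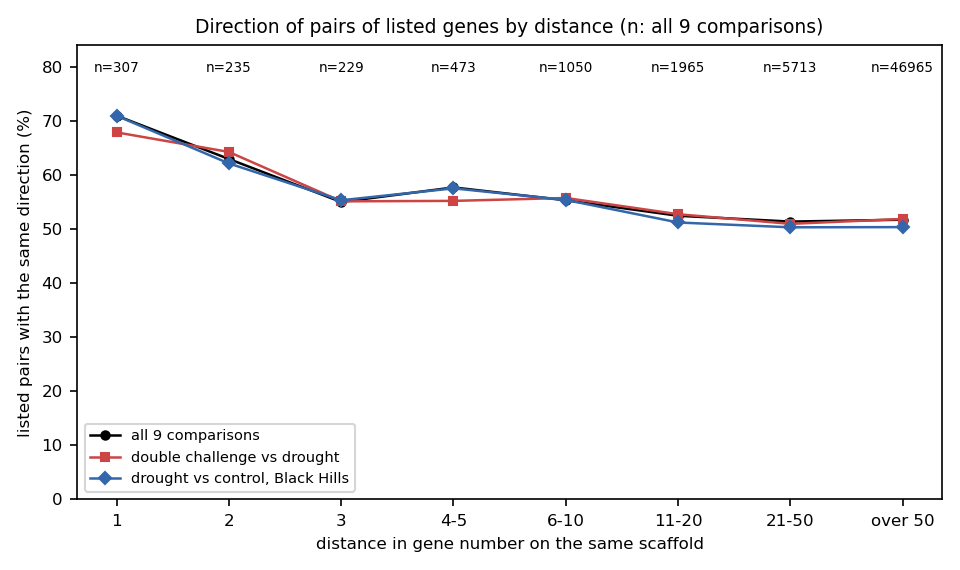
Share of pairs of listed genes on a scaffold that moved in the same direction (y axis, percent) by the distance between their gene numbers (x axis), for all 9 comparisons, the double challenge against drought and drought in Black Hills. Adjacent genes stand at 67.9% to 71.0% and genes more than 50 numbers apart at 50.4% to 51.9%.

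By run, joint change and opposed change were both common. A run had 2 or more listed members in a comparison 75 times, and the listed members had 1 direction in 45 of these (30 up-regulated, 15 down-regulated) and both directions in 30. The double challenge against drought gave 14 of 27 in 1 direction (9 up-regulated, 5 down-regulated), and drought in Black Hills 16 of 30 (9 up-regulated, 7 down-regulated). The double challenge against control gave 12 of 14 (10 up-regulated, 2 down-regulated). There 78.0% of listed members and 69.0% of all listed genes were up-regulated, so a shared direction is more likely for any listed genes. No such count for other genes was set beside these. Of the 45 runs, 18 showed 1 direction in every comparison that listed 2 or more of their members, 24 were mixed in at least 1 comparison, and 3 never had 2 members listed together. Over all their calls, 6 runs had up-regulated members alone and 4 had down-regulated members alone. A run was listed whole 17 times, in 16 runs: 11 times in the double challenge against drought, 4 of them with all genes up-regulated and 7 mixed, and 6 times in drought in Black Hills, once all up-regulated, 2 times all down-regulated and 3 times mixed. The other 29 runs were never listed whole.

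The largest joint rise of a whole run was that of genes 16 to 18 of scaffold 14419. Between drought and double challenge plants, gene 16 went from 6.13 to 33.2 FPKM (5.42-fold), gene 17 from 13.0 to 30.9 FPKM (2.38-fold) and gene 18 from 1.88 to 45.2 FPKM (24.1-fold). The 3 genes thus stood at like levels in the double challenge plants, while their levels in drought plants were several-fold apart. With drought in Black Hills 2 of them were lower, gene 16 going from 10.03 to 3.44 FPKM and gene 17 from 52.1 to 10.1 FPKM. Over both populations gene 17 fell from 39.1 to 13.6 FPKM with drought. Gene 18 was not listed for drought. It rose with herbivory alone, from 4.54 to 35.0 FPKM over both populations and from 7.16 to 51.2 FPKM in Big Horns, and in the double challenge against control from 3.8 to 45.4 FPKM. The run therefore held neighbours that rose together when larvae were added to drought, while gene 17 was called against control only for drought and gene 18 only with larvae.

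The other 3 whole runs that rose between drought and double challenge plants were chosen for description after their values were seen. In genes 151 to 153 of scaffold 23794 some genes were also listed with a fall for drought. Drought plants are the treated group there and the reference of the double challenge, so fall and rise are not successive changes. Gene 152 fell from 71.1 to 29.0 FPKM and gene 153 from 17.0 to 3.66 FPKM with drought in Black Hills, and both also fell over both populations. In the double challenge against drought, gene 151 rose 2.04-fold, gene 152 1.74-fold and gene 153 2.54-fold, to 26.9, 49.9 and 6.54 FPKM. Genes 530 to 532 of scaffold 19424 had the most even change, of 1.89-fold, 1.96-fold and 1.97-fold, from 8.54, 20.3 and 9.69 FPKM in drought plants. Genes 177 to 179 of scaffold 3288 rose unevenly, the first 2 by 2.53-fold (106 to 268 FPKM) and 2.21-fold (23.3 to 51.5 FPKM) and gene 179 by 10.6-fold (8.19 to 87.1 FPKM). Gene 179 alone of that run was also listed for herbivory, with a rise from 7.88 to 45.8 FPKM in Black Hills.

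Among runs listed whole, the largest joint fall was that of genes 311 to 313 of scaffold 26833, which hold the most abundant member. With drought in Black Hills, gene 311 fell from 367 to 84.5 FPKM (4.34-fold), gene 312 from 9840 to 3302 FPKM (2.98-fold) and gene 313 from 2620 to 1061 FPKM (2.47-fold). All 3 fell although their levels in the control plant spanned a wide range. Gene 311 (Bostr.26833s0311) went the other way in Big Horns, from 16.7 FPKM in the control plant to 126 FPKM with drought (7.55-fold) and, with herbivory, from 17.3 to 216 FPKM (12.5-fold). Genes 312 and 313 were listed in no other comparison. The 2 populations' single control plants differed 21.6-fold in gene 311, with 17.0 FPKM in Big Horns as the mean of its values in both tables and 367 FPKM in Black Hills, and each rested on 1 plant.

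A further pair of runs was listed whole in 1 direction for drought in Black Hills and was chosen after their values were seen. Genes 193 to 195 of scaffold 13158 fell from 22.5 to 4.85 FPKM, from 29.5 to 12.7 FPKM and from 7.06 to 2.57 FPKM. With larvae, its members were called in different comparisons: gene 194 rose from 16.8 to 41.9 FPKM between drought and double challenge plants of both populations, and gene 193 rose from 7.19 to 33.0 FPKM with herbivory in watered Big Horns plants. Genes 29 to 31 of scaffold 26959 rose by 1.90-fold, 2.09-fold and 1.82-fold with drought in Black Hills, from 14.8, 177 and 20.2 FPKM. Of those, gene 31 fell 2.09-fold when larvae were added to drought, and gene 29 was 2.15-fold higher in double challenge than in herbivory plants.

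**Figure D4:**
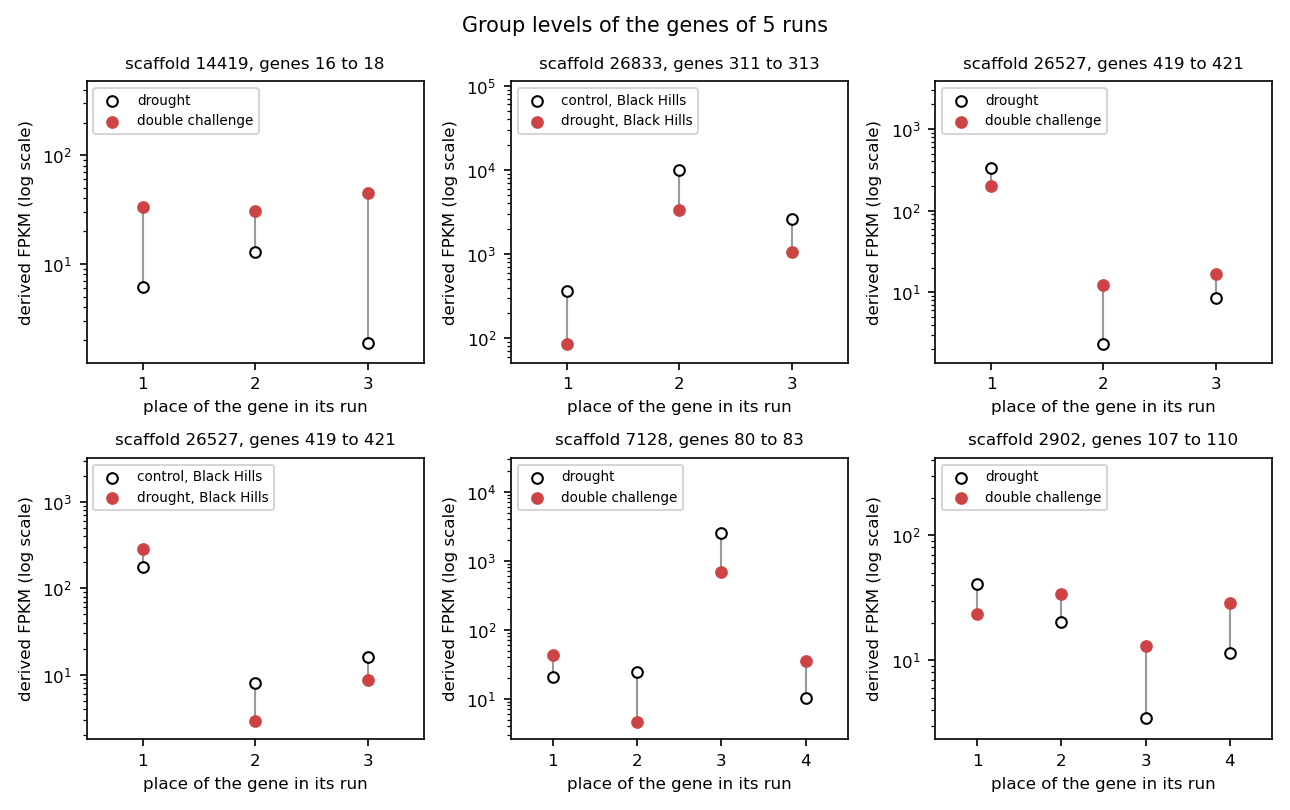
FPKM of each gene (log10 axis) in the reference group and in the treated group for whole runs, with 1 pair of points per gene at its place in the run (x axis), open for the reference group and red for the treated group, and 1 value per group, so without error bars. The red point is the higher for every gene of genes 16 to 18 of scaffold 14419 and the lower for every gene of genes 311 to 313 of scaffold 26833, while both orders occur for genes 419 to 421 of scaffold 26527, 80 to 83 of scaffold 7128 and 107 to 110 of scaffold 2902.

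Genes 419 to 421 of scaffold 26527 were the only run listed whole in more than 1 comparison, and its members moved in both directions each time. With drought in Black Hills, gene 419 rose from 177 to 284 FPKM while gene 420 fell from 7.97 to 2.93 FPKM and gene 421 from 15.8 to 8.77 FPKM. Between drought and double challenge plants each gene turned, gene 419 falling from 331 to 199 FPKM, gene 420 rising from 2.29 to 12.2 FPKM and gene 421 from 8.48 to 16.5 FPKM. Genes 420 and 421 thus moved together and against gene 419. The drought plants of Black Hills are the numerator of 1 comparison and part of the denominator of the other. The part of this in the turns was not tested.

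In genes 80 to 83 of scaffold 7128 the outer genes rose and the inner genes fell when larvae were added to drought. Gene 80 rose from 20.5 to 42.8 FPKM and gene 83 from 10.2 to 35.5 FPKM. Gene 81 fell from 24.6 to 4.64 FPKM (5.30-fold) and gene 82 from 2499 to 681 FPKM (3.67-fold). Gene 82, one of the most abundant members, rose in Black Hills from 135 to 647 FPKM with drought and from 136 to 817 FPKM with herbivory. The drought level of 647 FPKM in Black Hills stood below that of 2499 FPKM over both populations. Gene 83 was highest in double challenge plants, at 25.3-fold its level of 1.41 FPKM in controls and 5.69-fold its level of 6.23 FPKM in herbivory plants.

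A further pair of named runs split between the directions. In genes 107 to 110 of scaffold 2902, gene 107 fell from 40.7 to 23.4 FPKM between drought and double challenge plants, while genes 108, 109 and 110 rose from 20.1 to 34.1, from 3.44 to 13.0 and from 11.4 to 28.7 FPKM. Genes 109 and 110 also rose with herbivory, by 3.49-fold and 2.70-fold, and in the double challenge against control, by 2.92-fold and 2.47-fold. They were not called for drought, for which genes 107 and 108 moved in opposite directions in Black Hills (22.7 to 45.7 and 36.2 to 21.9 FPKM). In the 5 genes 43 to 47 of scaffold 1460, the first 3 rose with drought in Black Hills, by 2.13-fold, 2.07-fold and 1.65-fold. Genes 43 and 45 fell in the double challenge against drought (37.1 to 21.7 and 89.6 to 56.3 FPKM), and genes 46 and 47 rose (7.41 to 13.4 and 11.7 to 24.8 FPKM). The run was thus made of 1 group of neighbours called for drought and 1 called only when larvae were added.

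The remaining whole runs with both directions, chosen after their values were seen, each had 2 adjacent genes that moved together. An end gene moved the other way, which was the last gene in 5 of the 6. In genes 419 to 421 of scaffold 26527, described above, it was the first gene in both comparisons. In genes 206 to 208 of scaffold 27991 changes were of equal size and unlike sign, with rises of 4.37-fold (372 to 1627 FPKM) and 4.57-fold (2.70 to 12.3 FPKM) and a fall of 4.22-fold (86.3 to 20.5 FPKM) in the double challenge against drought. In genes 17 to 19 of scaffold 10199 the first 2 fell, by 1.98-fold and 1.81-fold, and gene 19 rose 3.91-fold. The same comparison lowered genes 575 and 576 of scaffold 26833, by 2.08-fold and 1.69-fold, and raised gene 577 by 2.27-fold. Genes 95 and 96 of scaffold 0697 rose 2.23-fold and 2.46-fold, and gene 97 fell 8.13-fold, from 12.4 to 1.52 FPKM. In drought plants gene 97 stood 13.5-fold above control. For drought in Black Hills, genes 77 and 78 of scaffold 26675 rose 1.96-fold and 2.09-fold while gene 79 fell 1.64-fold. Gene 120 of scaffold 6251, among the most abundant at 1226 FPKM in the control plant, rose to 2561 FPKM while genes 121 and 122 fell from 10.2 to 3.89 and from 1.26 to 0.333 FPKM.

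Several runs were listed in part but held strong responses to larvae. In genes 8 to 11 of scaffold 21942, which shared with genes 107 to 110 of scaffold 2902 the most members listed for herbivory (2) and had the larger changes, genes 8 and 10 rose side by side around gene 9. With herbivory gene 8 went from 29.4 to 163 FPKM and gene 10 from 12.0 to 65.3 FPKM, and in the double challenge against control they rose 6.4-fold and 7.08-fold. When larvae were added to drought, genes 8, 9 and 10 rose 5.35-fold, 16.8-fold and 6.31-fold, gene 9 from 1.23 to 20.7 FPKM. Gene 11 was listed only for drought in Black Hills, where it fell from 6.99 to 2.15 FPKM. This scaffold is short in gene numbers, with 4 listed genes and 11 as its highest listed number.

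On scaffold 25993, 2 runs lay close together. Gene 427 (Bostr.25993s0427) rose 21.1-fold in the double challenge against control, from 265 to 5587 FPKM, 15.9-fold against drought and 15-fold with herbivory, to 4321 FPKM. Its neighbours moved the same way at far lower levels and each in 1 comparison: gene 428 from 34.3 to 87.8 FPKM in the double challenge against control, and gene 429 from 2.56 to 17.0 FPKM in the double challenge against drought. The 5 genes 419 to 423, a few numbers before, rose where listed for larvae, with gene 423 going from 23.2 to 89.0 FPKM with herbivory and genes 419, 421 and 423 rising 2.43-fold, 5.10-fold and 2.37-fold in the double challenge against drought. For drought in Black Hills that run was mixed: genes 420 and 421 fell, from 8.23 to 2.06 and from 49.7 to 19.5 FPKM, and gene 422 rose from 48.0 to 96.9 FPKM.

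Genes 859 to 862 of scaffold 23794, the run named for herbivory in Black Hills, held 1 strong responder. Gene 861 rose from 1.86 to 24.1 FPKM with herbivory in Black Hills, 13.2-fold over both populations, 14.9-fold in the double challenge against control and 9.24-fold against drought. Gene 860 was listed with it in both double challenge comparisons and rose 1.95-fold and 2.13-fold. The outer genes 859 and 862 rose with drought in Black Hills instead, by 1.59-fold and 2.09-fold, and gene 859 fell 1.99-fold when larvae were added. In genes 266 to 268 of scaffold 13129 every call was a rise, yet no 2 members shared a comparison. Gene 268 rose 41.8-fold with herbivory in Big Horns (1.43 to 59.8 FPKM) and 21.1-fold in the double challenge against drought, gene 266 rose 6.70-fold with drought in Big Horns, and gene 267 rose 1.66-fold with drought in Black Hills.

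The 3 genes 234 to 236 of scaffold 18473 held the largest fold change of any member. Gene 234 rose 45.0-fold in the double challenge against drought, from 1.1 to 49.3 FPKM, and 12.3-fold against herbivory, from 3.79 to 46.8 FPKM, so that its level was high only in the plants given both stresses among the groups listed. Genes 235 and 236 rose with drought in Black Hills by 15.7-fold and 14.7-fold, but from 0.280 and 0.248 FPKM to only 4.40 and 3.65 FPKM. The fold changes of these neighbours rest on very low levels in the control plant.

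Genes 181 to 184 of scaffold 7867 combined opposite responses to drought. Gene 184 rose with drought in each population by like amounts, from 39.8 to 128 FPKM in Big Horns and from 33.9 to 127 FPKM in Black Hills, and was 2.34-fold lower in double challenge than in drought plants. Gene 183 (Bostr.7867s0183) fell with drought over both populations from 53.0 to 19.7 FPKM and in Black Hills from 72.3 to 20.9 FPKM. It fell also with herbivory, from 54.1 to 14.96 FPKM, and yet stood higher in double challenge than in drought plants (40.3 beside 18.6 FPKM) and than in herbivory plants (40.2 beside 13.8 FPKM). Gene 182 rose with drought, from 2.80 to 13.4 FPKM, and gene 181 was listed only for the double challenge, 1.68-fold above drought and 2.33-fold above control.

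A run of falling genes, chosen after its values were seen, was genes 173 to 176 of scaffold 27991, in which each call was a fall. Gene 175 (Bostr.27991s0175) was listed in 6 comparisons and fell from 33.2 to 10.6 FPKM with drought in Black Hills, from 33.6 to 3.49 FPKM with herbivory in Black Hills and from 22.6 to 3.84 FPKM in the double challenge against control. Genes 173 and 176 fell beside it with drought in Black Hills, from 3.99 to 0.324 and from 11.3 to 4.37 FPKM. Gene 174 fell 2.10-fold beside it in the double challenge against drought, where gene 175 fell 1.92-fold, and 2.94-fold in the double challenge against control. Like gene 183 of scaffold 7867, gene 175 was lower after either stress alone, but it was lower still, not higher, when larvae were added to drought.

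Drought in Black Hills and the double challenge against drought listed some members with opposite signs, as the shared drought plants allow. Others had the same sign, as gene 95 of scaffold 0697 (up-regulated in both) and gene 175 of scaffold 27991 (down-regulated in both). Members of either kind were not counted. Genes 931 and 932 of scaffold 26833 rose with drought in Black Hills, by 1.84-fold and 2.02-fold, and fell by 1.72-fold and 1.73-fold in the double challenge against drought. In genes 181 to 183 of scaffold 29827, gene 181 fell from 50.7 to 10.04 FPKM with drought in Black Hills and rose from 9.76 to 46.3 FPKM in the double challenge against drought. Gene 98 of scaffold 10273 did the same at a larger scale, from 10.1 to 1.09 and from 1.19 to 30.5 FPKM. Its neighbour, gene 99, rose with drought in Black Hills from 44.8 to 102 FPKM, and gene 100 rose from 17.4 to 36.3 FPKM beside it when larvae were added.

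The smaller runs not yet described were mostly listed 2 members at a time, with fold changes of a few-fold. Neighbours rose together with drought in Black Hills in scaffolds 2570 (genes 77 and 78), 3640 (genes 170 and 171), 7867 (genes 1611 and 1612) and 25219 (genes 88 and 89). They fell together in scaffolds 18351 (genes 145 and 146) and 25219 (genes 53 and 54). In the double challenge against control, gene 54 of scaffold 25219 fell and gene 55 rose. They were split in the same comparison in scaffolds 0697 (genes 4 and 5), 27895 (genes 69 and 70), 28625 (genes 75 and 76) and, with a gene between them, 3359 (genes 60 and 62), 6758 (genes 32 and 34) and 6864 (genes 173 and 175). The pair on scaffold 28625 was the one with levels 346-fold apart, gene 75 falling from 3.40 to 0.909 FPKM and gene 76 rising from 1177 to 2271 FPKM. When larvae were added to drought, genes 33 and 34 of scaffold 6758 and genes 85 and 86 of scaffold 26527 fell together, whereas genes 173 and 174 of scaffold 6864, genes 245 and 246 of scaffold 20129 and genes 189 and 190 of scaffold 25542 moved apart. Members of 3 runs, on scaffolds 6864 (genes 55 to 57), 13129 and 22157, never shared a comparison.

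Few members could be set side by side between populations. Drought listed 3 of them in both: gene 43 of scaffold 1460 rose 3.65-fold in Big Horns and 2.13-fold in Black Hills, gene 184 of scaffold 7867 rose 3.22-fold and 3.76-fold, and gene 311 of scaffold 26833 rose 7.55-fold in Big Horns and fell 4.34-fold in Black Hills. This count is limited by drought in Big Horns, which listed 66 of all 2873 genes (2.30%). How many of all genes were listed for drought in both populations was not counted. No member could be listed for herbivory in both populations, since such genes were set aside. Levels in both populations' control plants could be derived for 5 members. They were higher in the Black Hills plant for 4 of them, gene 98 of scaffold 10273 (2.68 in Big Horns and 10.1 FPKM in Black Hills), gene 193 of scaffold 13158 (7.19 and 22.5 FPKM), gene 43 of scaffold 1460 (7.71 and 23.4 FPKM) and gene 311 of scaffold 26833. Gene 184 of scaffold 7867 was nearly alike, at 39.8 and 33.9 FPKM. These 5 members are those called within each population against its own control plant. A high or low control level favours such a call, so the 5 were not chosen apart from these levels. With 1 control plant per population, plant, population and lane cannot be told apart here.

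Most members were listed in few comparisons. Of the 146, 77 were listed in 1 comparison (52.7%, beside 61.3% of the other listed genes) and 41 in 2 (28.1%, beside 22.4%). A further 17 were listed in 3 (11.6%, beside 9.57%), 8 in 4 (5.48%, beside 4.33%) and 3 in 6 (2.05%, beside 0.44%). No member was listed in 5 or 7 (beside 1.80% and 0.07%). Those in 6 were gene 183 of scaffold 7867, gene 98 of scaffold 10273 and gene 175 of scaffold 27991, each beside neighbours listed in fewer. Runs in which each gene passed 4-fold in some table were 5, with 15 genes: genes 81 to 83 of scaffold 7128, 8 to 10 of scaffold 21942, 206 to 208 of scaffold 27991, and the whole runs on scaffolds 14419 and 18473.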

How the data were processed

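RNA of 13 plants was sequenced as single reads. Alignment by the authors used TopHat2, and transcripts were assembled and merged with Cufflinks2 and Cuffmerge2 and groups tested with Cuffdiff2. FastQC 0.10.1 is named in the submitters' processing notes. Strand setting, handling of multiply mapped reads and genome build are not given in the sources used here. Of the 9 deposited tables of called genes, 5 pool the populations and 4 stay within one. Their fold change is a linear ratio computed by the authors, with the direction beside it. The deposited FPKM is the sum over both groups, and the deposited q-value, a false discovery rate from Cuffdiff2, is at most 0.05. These columns were used as the sole measurements, and the authors' q-values decided which genes are listed.

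Each group's FPKM was derived by dividing that sum according to the fold change, with no pseudocount and no filter. Identifiers were split into scaffold and gene number, and runs, adjacent pairs and pairs by distance were counted. The members, runs and alternatives were chosen with earlier results of these data known. Runs were named by a fixed rule: in each comparison the run with the most listed members, with ties, which were common, settled by the larger median fold change; the whole runs with the largest median rise and fall; the run listed whole most often; and the 3 runs with the most members on the smaller side of a split, with ties settled by the number listed. Other runs described were chosen after their values were seen. No gene list by family was used, because no identifier could be matched to a name. Counting was tested on simulated tables. No test across plants was made, since each group has 1 value, and the depth per library is unknown. Alternatives were longer runs, a gap of 1 number, a q of at most 0.01, a 4-fold minimum, an FPKM minimum of 1, pseudocounts of 1 and 0.1 FPKM, keeping the identifiers set aside (also without the run that added most pairs), and leaving out 1 table. Python 3.11.15, pandas 2.3.3, numpy 2.4.6 and matplotlib 3.10.9 were used.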

Additional observations from a re-analysis of the deposited data

Results flagged for a closer look

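Gene 311 of scaffold 26833 moved in opposite directions in the 2 populations, up-regulated 7.55-fold with drought in Big Horns and down-regulated 4.34-fold with drought in Black Hills. The difference between the populations was not tested, since each group has 1 value. Its neighbours, genes 312 and 313, were listed for drought in Black Hills alone, where both fell. The control level of the gene rests on 1 plant in each population, 17.0 FPKM in Big Horns and 367 FPKM in Black Hills. These differed 21.6-fold. The gene's levels with drought, given above, lay closer together, so both fold changes depend on those single plants.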

How the results depend on the processing

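The share of adjacent pairs in 1 direction, 66.3%, became 76.2% of 126 pairs when the 61 identifiers set aside were kept (70.9% without genes 60 to 64 of scaffold 27895), and 80.0% of just 5 pairs when calls under 4-fold were left out. It lay between 60.0% and 69.8% with runs of 4 or more, a gap of 1 number, a q of at most 0.01, an FPKM minimum of 1, or the tables other than drought in Black Hills. The number of runs depends on how many genes are listed. From 45 runs and 146 members it went to 9 runs and 38 members with runs of 4 or more, 110 and 375 with a gap of 1 number, 19 and 60 without the table of drought in Black Hills, 5 and 15 with calls of 4-fold or more, and 20 and 64 with the stricter q. The 45 times that listed members of a run had 1 direction became 16 with runs of 4 or more and 99 with a gap. With the original members kept, they became 29 in the tables other than drought in Black Hills and 7 among calls of 4-fold or more. The median difference in log2 fold change was 0.65 with a pseudocount of 1 FPKM and 0.86 with 0.1. Among medians of named runs under a pseudocount, added after seeing the data, 24 moved little and 2 moved more, with none changing sign. No paired analysis was possible because each group has 1 value and the tables carry no replicate numbers, and for the same reason no plant could be left out.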

Other observations

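With the 61 identifiers that were listed for herbivory in both populations kept, the tables held 49 runs with 161 genes, and 5 of these runs contained 8 such identifiers. The run with the most pairs listed together lay there, all of them in the same direction. Genes 60 to 64 of scaffold 27895 were all 5 up-regulated in the double challenge against drought (9.13-fold to 159-fold), in the double challenge against control (9.25-fold to 187-fold), with herbivory (8.31-fold to 134-fold), with herbivory in Black Hills (34.6-fold to 529-fold) and with drought in Black Hills (2.97-fold to 5.08-fold), and 4 of the 5 with herbivory in Big Horns (5.10-fold to 45.0-fold). These comparisons share plants.

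Genes 246 to 248 of scaffold 0556 were all up-regulated in the double challenge against drought (5.30-fold to 118-fold), the double challenge against control (3.72-fold to 51.3-fold), herbivory (4.03-fold to 27.9-fold) and herbivory in Big Horns (6.41-fold to 34.0-fold), and 2 of them fell with drought in Black Hills (1.98-fold and 5.99-fold). Genes 700 to 702 of scaffold 7128 fell together with drought in Black Hills, by 3.38-fold to 10.6-fold. Gene 246 of scaffold 0556 and gene 700 of scaffold 7128 were among the identifiers set aside. These runs were singled out after their values were seen, and whether their genes are copies that share reads was not tested.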
